A study of Mus musculus with 42 samples.

Results

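The genes described here take up, carry and store fatty acids, and they were read in aorta and skeletal muscle of diabetic mice treated with rosiglitazone or with Chinese herbal formulas. The members were the 10 genes Lpl, Cd36, Fabp3, Fabp4, Fabp5, Angptl4, Slc27a1, Acsl1, Cidec and Dgat2, out of 21186 gene symbols on the array. They were found by the gene name of each probe, which gave 19 probes of 41174. In each tissue 7 groups of 3 arrays were compared, 42 arrays in all, with 1 array per mouse and tissue.

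The healthy group consisted of male C57BL/6 mice given saline by gavage. The diabetic group consisted of male KK/Ay mice, which carry the yellow agouti allele and become obese and diabetic without further treatment, also given saline. The macroangiopathy group consisted of male KK/Ay mice that were fed a high-fat diet with the nitric oxide synthase inhibitor L-NAME for 8 weeks to bring on disease of the large vessels, and then given saline. The SHENQI, yangyinyiqi, huoxue and rosiglitazone groups went through the same 8 weeks and then received their drug by gavage. Gavage lasted 8 weeks in all groups. The mice taken into the study were 18 to 20 weeks old, and their age at tissue collection is not stated. SHENQI is a compound herbal preparation, and the yangyinyiqi and huoxue formulas are given as separate groups. Healthy mice differed from every other group in strain as well as in disease, so strain and diabetes cannot be told apart. Macroangiopathy mice differed from diabetic mice in both the diet and L-NAME, and nothing in the labels ties an aorta to a muscle of the same mouse.

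Fatty acids reach cells as free acids or as triglyceride in lipoproteins. Lipoprotein lipase, the product of Lpl, frees fatty acids from lipoprotein triglyceride at the vessel wall, and Angptl4 encodes a secreted protein that inactivates it. Cd36 and Slc27a1 encode membrane proteins of fatty acid uptake, Acsl1 encodes an enzyme that joins fatty acids to coenzyme A, and Fabp3, Fabp4 and Fabp5 encode binding proteins that carry them in the cytosol. Dgat2 catalyses the last step of triglyceride synthesis, and Cidec encodes a protein of the lipid droplet surface that favours large droplets. Rosiglitazone activates the nuclear receptor PPARγ, encoded by Pparg, which is most abundant in fat cells. Most of these genes are known as targets of PPAR receptors in fat, where rosiglitazone is known to raise them.

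The probes are 60 bases long, and 4 are shown as examples of what was hybridized, chosen among those with a reading frame free of stop codons. None of them is a probe of Slc27a1, Fabp3 or Cidec. Each was read from the scanner output, is written 5′ to 3′ in the sense of the transcript with no base set apart, and is placed on the mouse build mm9 as those files give it. The Lpl probe shown lies at chr8:71425050-71425109 on the plus strand. The Acsl1 probe lies at chr8:47619774-47619833 on the plus strand. The Fabp4 probes lie on the minus strand, the first at chr3:10208442-10208501 and the second at chr3:10204533-10205262, so that its 60 bases are spread over 730 bases of the genome, as a probe across an intron would be.
Lpl probe A_52_P257812: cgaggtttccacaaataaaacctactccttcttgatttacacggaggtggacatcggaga
Acsl1 probe A_51_P463452: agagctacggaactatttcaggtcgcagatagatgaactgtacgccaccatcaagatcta
Fabp4 probe A_52_P564544: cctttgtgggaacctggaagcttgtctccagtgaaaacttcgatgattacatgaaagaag
Fabp4 probe A_51_P336830: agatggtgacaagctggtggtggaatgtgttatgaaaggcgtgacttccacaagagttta
Each of these 4 sequences has 1 reading frame without a stop codon. Exon and UTR positions were not assigned, since an annotation of mm9 was not used here. The second Lpl probe, A_51_P259296, lies downstream at chr8:71430267-71430326, and the Slc27a1 probes A_51_P117477 and A_52_P199905 lie at chr8:74110256-74110315 and chr8:74111141-74111200, all on the plus strand.

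Values are log2 intensities after background correction and quantile normalization, averaged over the probes of a gene, so a difference of 1 is a change of 2-fold. Between 57.94% and 73.58% of probes were well above background on the aorta arrays and between 49.09% and 65.25% on the muscle arrays. The member probes cleared the background on each of the 21 arrays in both tissues and none was saturated, with the exception of the Fabp5 probe, which reached that level on 13 of 21 aorta arrays and 2 of 21 muscle arrays. Fabp5 was therefore not tested in muscle, which left 10 members tested among 15855 genes in aorta and 9 among 14212 genes in muscle. A gene was called at an adjusted p below 0.05 in limma, and the unadjusted threshold that the methods name is given beside it.

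The muscle arrays carried skeletal muscle markers at a mean level between 16.33 and 16.78. The aorta arrays carried smooth muscle markers, and also the fat cell gene Adipoq between 13.02 and 15.38 and the brown fat gene Ucp1 between 14.98 and 17.51, against Ucp1 between 5.29 and 8.93 in muscle. The 6 skeletal muscle markers averaged anywhere from 7.45 to 15.29 in single aorta samples, and the 5 atrial and heart muscle markers from 8.13 to 13.05. In such bulk samples, a different number of fat cells and a different amount of RNA per fat cell cannot be told apart. Some arrays stood apart. Rosiglitazone aorta 1 had the lowest fat cell markers of the aortas, a skeletal muscle marker mean of 14.19 and an epithelial marker mean of 10.26, where no other aorta exceeded 7.64. Healthy aorta 1 had a smooth muscle marker mean of 9.66 against at least 12.39 in the other aortas and the highest macrophage marker mean, at 10.53. Healthy muscle 3 had the highest epithelial and macrophage marker means of the muscles, at 10.67 and 9.83, and SHENQI muscle 3 the highest fat cell markers.

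Apart from Fabp5, the members were already abundant in healthy tissue, and within each of these genes the tissues could be compared. Fabp5 averaged 5.85 in healthy aorta and 5.54 in healthy muscle, near background, and its tissues were not compared. Cidec averaged 15.94 in healthy aorta and 12.90 in healthy muscle, and the aorta was higher by 1.90 to 3.35 in the 7 groups. Dgat2 was higher in aorta by 2.66 to 3.58, Angptl4 by 2.19 to 3.38, and Fabp4, the fat cell binding protein, by 1.94 to 2.76. Cd36 and Acsl1 were higher in aorta by 0.49 to 1.13 and by 0.72 to 1.19. Fabp3, the binding protein of heart and skeletal muscle, went the other way and was lower in aorta by 0.39 to 1.18. Lpl was higher in aorta by 1.27 in healthy mice and lower by 0.11 in the group at the other end of the range, and Slc27a1 ranged from 1.24 higher in aorta in healthy mice to 1.04 lower in huoxue-treated mice.

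**Figure D1:**
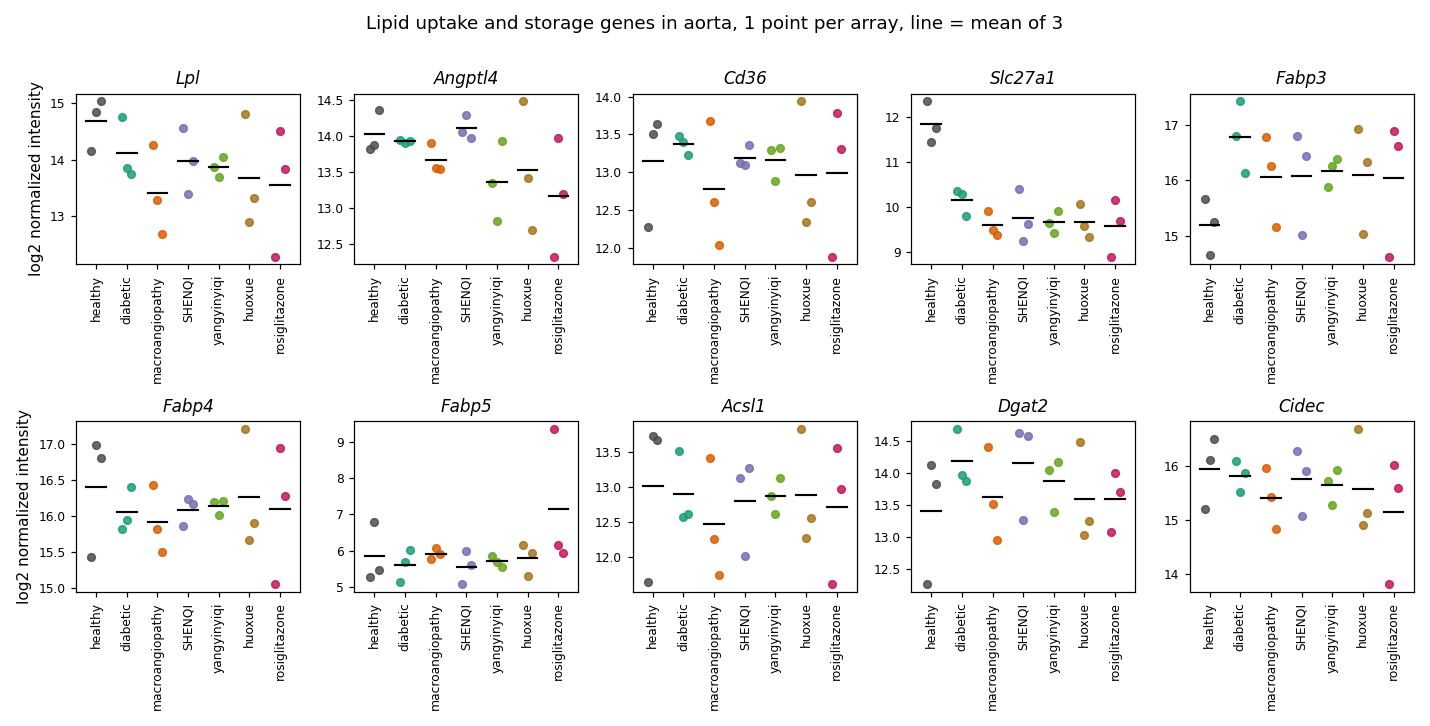
Log2 intensity of each member on the 21 aorta arrays, by group, with a point for each array and a line for each group mean. Slc27a1 is the member whose healthy arrays, from 11.44 to 12.34, lie above those of every other group, and rosiglitazone aorta 1 is the lowest array for 8 members and the highest for Fabp5.

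**Figure D2:**
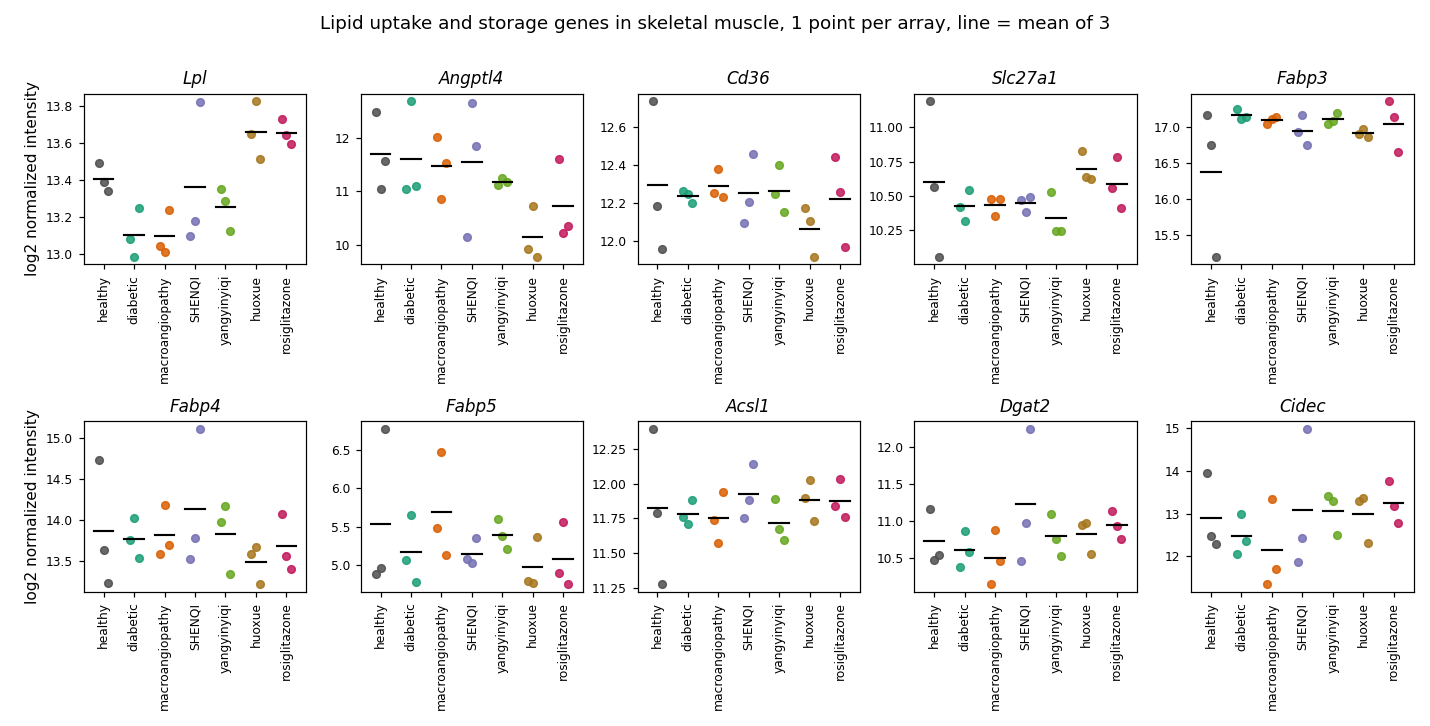
Log2 intensity of each member on the 21 muscle arrays, by group, with a point for each array and a line for each group mean. Lpl lies between 13.51 and 13.83 in the huoxue and rosiglitazone groups and between 13.01 and 13.24 in the macroangiopathy group, and Fabp5 is near background.

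To learn whether rosiglitazone moved the genes that PPARγ is known to control, the rosiglitazone group was compared with the macroangiopathy group. In aorta none of the 10 members was called higher or lower, and in muscle Lpl alone of 9 members was called, at 1.48-fold the level of untreated mice. The other members either kept an estimate near 0 or varied between mice by more than the groups differed.

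In aorta, 0 of 10 members were called with limma, where 0% of all genes were called, and 0 members reached an unadjusted p below 0.05, which 2.89% of all genes did. Estimates were positive for 5 members and negative for 5, with a median log2 change of 0.06 against −0.03 over all genes. Lpl read 12.28, 14.51 and 13.84 with rosiglitazone and 14.27, 13.28 and 12.68 without it. The rosiglitazone arrays spread over the whole range of the macroangiopathy arrays and beyond, and the log2 change was 0.13 (95% confidence interval −1.06 to 1.33). Cd36, Fabp4 and Acsl1, the uptake, carrier and activation genes of fat cells, had log2 changes of 0.22, 0.18 and 0.24, and Cidec and Dgat2, the storage genes, of −0.27 and −0.03. Angptl4 gave the lowest estimate, at −0.50 (SE 0.41). The median member had a 95% confidence interval of ±1.14 on the log2 scale. For such a gene a smaller estimate has an interval that includes 0, and a call after adjustment needs at least as large an estimate. The arrays of the groups overlapped in every one of the 10 members, so 0 of 10 stood clear of overlap, against 15.3% of all genes.

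Fabp5, which encodes the binding protein of skin and macrophages, had the highest estimate in aorta. It read 9.36, 6.15 and 5.93 with rosiglitazone and 5.76, 6.08 and 5.90 in macroangiopathy mice. A single array, rosiglitazone aorta 1, accounted for the difference. The log2 change was 1.23 (SE 0.64, unadjusted p = 0.0733, limma) with that array and 0.13 without it. The same array had the epithelial marker mean of 10.26 and a Krt5 level of 15.27, the highest of the aortas. The part of these markers in the Fabp5 value was not tested. Leaving out that array moved the estimate of Lpl to 0.77 and that of Fabp3 to 0.69, and neither was called.

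In muscle, 1 of 9 members was called with limma, where 5.5% of all genes were called, and 1.91% were called higher. The member was Lpl. It read 13.73, 13.64 and 13.60 in rosiglitazone-treated mice and 13.04, 13.01 and 13.24 in macroangiopathy mice. The groups did not overlap, which held for 1 of 9 members and 36.2% of all genes. Group levels were 13.66 ± 0.07 and 13.10 ± 0.12 (mean ± SD, n = 3 each). The log2 change was 0.56 (SE 0.15, 95% confidence interval 0.25 to 0.87, adjusted p = 0.034). Lpl was also the only member with an unadjusted p below 0.05, which 21.6% of all genes reached. Cell type markers were read beside it. The 6 macrophage markers averaged 8.36 to 8.54 in the rosiglitazone muscles and 8.24 to 8.26 in the macroangiopathy muscles, with 1 of 6 called higher. The 9 fat cell markers averaged 8.83 to 9.42 and 8.42 to 9.50, with 0 of 9 called, and the 6 skeletal muscle markers 16.49 to 16.63 and 16.73 to 16.78, with 1 of 6 called lower. Their part in the Lpl value was not tested.

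Cidec had the highest estimate in muscle without being called. It read 13.78, 13.17 and 12.79 with rosiglitazone and 11.34, 13.35 and 11.70 without it. Macroangiopathy mouse 2 lay inside the rosiglitazone range, so the groups overlapped, and the log2 change was 1.11 (SE 0.68, adjusted p = 0.356). Angptl4 read 11.60, 10.23 and 10.36 against 12.01, 10.86 and 11.54, a log2 change of −0.74 (SE 0.57). Dgat2 changed by 0.44 (SE 0.33), and Cd36, Fabp3, Fabp4, Slc27a1 and Acsl1 by −0.14 to 0.15. The median over the members was 0.12 against 0.04 over all genes.

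**Figure D3:**
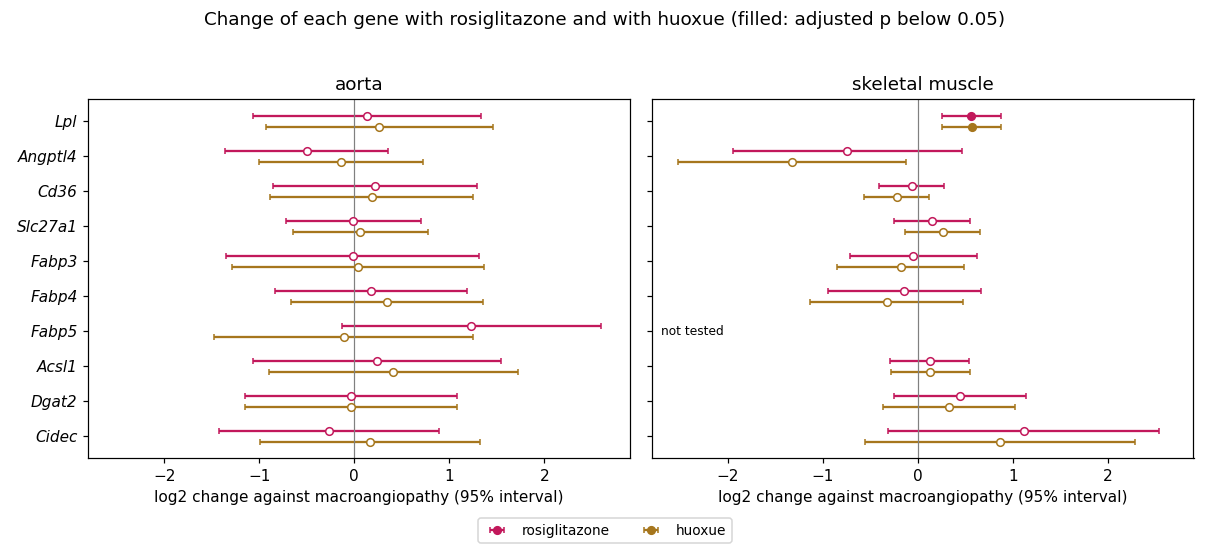
Log2 change of each member in rosiglitazone-treated and huoxue-treated mice against macroangiopathy mice, in aorta and in muscle, with 95% confidence intervals from limma as bars and filled points for called members. With rosiglitazone the interval of Lpl in muscle, from 0.25 to 0.87, excludes 0, and those of the 10 members in aorta include it.

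The call of Lpl was close to the threshold, and it could not be separated from the slides on which the muscle arrays were hybridized. No slide held arrays of both the rosiglitazone and the macroangiopathy group, so slide and treatment cannot be told apart. On slide 3, healthy muscles 1 and 2 read 13.49 and 13.39 next to rosiglitazone muscles 2 and 3 at 13.64 and 13.60, a difference of 0.18 between the means. There the Lpl probes parted, since A_51_P259296 read 14.41 and 14.37 in the healthy muscles and 15.07 and 14.75 with rosiglitazone, and A_52_P257812 read 12.58 and 12.40 against 12.22 and 12.44. On slide 11, rosiglitazone muscle 1 read 13.73 next to a mean of 13.66 for the 3 huoxue muscles. Diabetic muscles and 1 SHENQI muscle on slide 5 read 12.98 to 13.25. A term for slides 1, 3 and 11 was added to a limma fit of all 42 arrays. These slides were chosen from earlier results of these data, and that they stand apart is not shown here. With the term the log2 change of Lpl was 0.14 (unadjusted p = 0.786). All rosiglitazone and huoxue muscles lay on these slides and no macroangiopathy muscle did. The term was therefore estimated from healthy muscles and from healthy, diabetic and SHENQI aortas. It cannot separate slide from treatment in these muscles. Leaving out any 1 of the 6 arrays gave changes of 0.52 to 0.63 with adjusted p between 0.0521 and 0.122, so the call was lost each time.

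**Figure D4:**
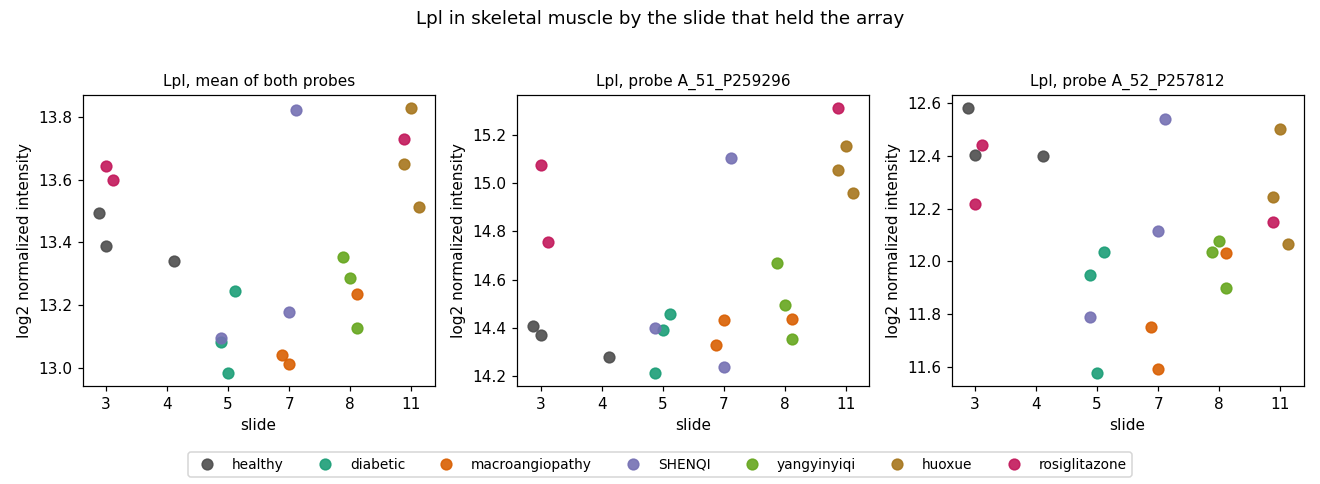
Log2 intensity of Lpl on each muscle array, as the mean of its probes and for each probe, arranged by slide on the x axis and coloured by group. In the mean, slides 3 and 11, which hold the rosiglitazone and huoxue muscles and 2 healthy muscles, range from 13.39 to 13.83, slides 5 and 8 from 12.98 to 13.35, and slide 7 up to 13.82 in SHENQI muscle 3.

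Rosiglitazone was set beside the other treatments, which were compared with the same 3 macroangiopathy mice and so share their controls. The huoxue group gave almost the same Lpl values in muscle. They were 13.65, 13.83 and 13.51, above all macroangiopathy arrays, with a log2 change of 0.57 (SE 0.15, adjusted p = 0.014). The call was lost in a fit of all 42 arrays (adjusted p = 0.505) and with slide as a random block (adjusted p = 0.104). With the term for slides 1, 3 and 11, estimated from other groups as given above, the change was 0.15 (unadjusted p = 0.778). It was also lost without macroangiopathy muscle 1, macroangiopathy muscle 2 or huoxue muscle 2 (adjusted p = 0.052, 0.0578 and 0.068). This was 1 of 9 members called, where 17.7% of all genes were called and 7.8% called higher. Angptl4 read 9.92, 10.74 and 9.78 in huoxue-treated muscle against 12.01, 10.86 and 11.54. These arrays did not overlap, and the log2 change of −1.32 (SE 0.57) had an adjusted p of 0.117. Groups did not overlap in 5 of 9 members, against 49% of all genes. All 3 huoxue muscles lay on slide 11, which held no macroangiopathy array, and their skeletal muscle markers averaged 16.33 to 16.42, with 3 of 6 called lower. The part of these markers was not tested.

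Between rosiglitazone and huoxue, which share a slide in each tissue, 0 of 9 members were called in muscle and 0 of 10 in aorta with limma, where 0.0985% and 0% of all genes were called, and 0 members had an unadjusted p below 0.05, which 8.59% and 0.549% of all genes reached. The log2 difference of Lpl in muscle was −0.01 (95% confidence interval −0.32 to 0.31). Angptl4 differed by 0.58 in muscle over all arrays, and on slide 11 the single rosiglitazone array read 11.60 against a huoxue mean of 10.15. In SHENQI and yangyinyiqi mice 0 members were called against macroangiopathy in either tissue, where 0% of all genes were called. The yangyinyiqi group had 0 members with an unadjusted p below 0.05 in either tissue, against 0.378% of all genes in aorta and 1.17% in muscle. The SHENQI group had 0 such members in aorta, against 1.35% of all genes, and 1 in muscle, against 1.22%. This was Dgat2 at a log2 change of 0.73 (unadjusted p = 0.0395), which was 0.22 without SHENQI muscle 3. Lpl in muscle changed by 0.27 with SHENQI and by 0.16 with yangyinyiqi. In aorta the changes ranged from −0.35 to 0.57 with SHENQI, from −0.30 to 0.45 with yangyinyiqi and from −0.14 to 0.41 with huoxue, which also had 0 of 10 members called there, with 0% of all genes.

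Whether the response to rosiglitazone differed between the tissues was tested directly with an interaction term. The test in limma called 0 of 9 members, where 0.0144% of all genes were called, and 0 members had an unadjusted p below 0.05. The lowest estimate was −1.38 for Cidec (adjusted p = 0.664). The Lpl change of 0.56 in muscle and 0.13 in aorta was not shown to differ (difference −0.43, SE 0.60).

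The transporter Slc27a1 gave the largest change among the members in the 8 comparisons, between KK/Ay and C57BL/6 aorta. It read 12.34, 11.44 and 11.76 in healthy aortas, 10.36, 10.29 and 9.79 in diabetic aortas and 9.90, 9.50 and 9.39 in macroangiopathy aortas. Every healthy array lay above every KK/Ay array. In mean ± SD (n = 3 each) the levels were 11.84 ± 0.46, 10.15 ± 0.31 and 9.60 ± 0.27. Slc27a1 fell by 1.70 on the log2 scale in diabetic aorta (SE 0.34, adjusted p = 0.0108), to 0.309-fold, and by 2.25 in macroangiopathy aorta (SE 0.34, adjusted p = 0.00148), to 0.210-fold. It was the 1 member of 10 called in each comparison, where 3.43% and 6.36% of all genes were called and 1.9% and 3.1% called lower. The comparisons share the healthy arrays. Groups did not overlap in 2 of 10 members against 18.1% of all genes for diabetic aorta, and in 1 of 10 against 27.8% for macroangiopathy aorta.

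Cell type markers were read beside it. The 5 smooth muscle markers averaged 9.66 to 13.47 in healthy, 13.34 to 14.14 in diabetic and 14.15 to 14.54 in macroangiopathy aortas. Of these, 0 of 5 were called in diabetic and 1 of 5 was called higher in macroangiopathy aortas against healthy. In diabetic aortas 5 of 5 were nonetheless higher at an unadjusted p below 0.05 in limma. Their median log2 change there was 1.87, against 0.02 over all genes. The 5 brown fat markers averaged 12.94 to 15.17, 12.87 to 13.15 and 12.44 to 13.56 in the same order, with 1 of 5 called lower in each comparison. The part of smooth muscle and brown fat cells in the Slc27a1 value was not tested.

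The treated aortas stayed at the level of the macroangiopathy group. Mean Slc27a1 was 9.75 with SHENQI, 9.66 with yangyinyiqi, 9.66 with huoxue and 9.58 with rosiglitazone, and the rosiglitazone change was −0.01 (95% confidence interval −0.72 to 0.70). In muscle Slc27a1 changed by −0.18 in diabetic and −0.17 in macroangiopathy mice, and neither was called. The change in aorta was lower than that in muscle by 2.08 (SE 0.40, adjusted p = 0.00293) for macroangiopathy, where 3.35% of all genes were called in the interaction. For diabetic mice the difference was −1.52 (adjusted p = 0.0547, 0.944% of all genes called).

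The 2 Slc27a1 probes did not agree on the size of this change. Probe A_51_P117477 read 14.43, 11.12 and 11.59 in healthy aortas, and probe A_52_P199905 read 10.24, 11.76 and 11.93. Healthy aorta 1 was thus the highest healthy array for one probe and the lowest for the other, where it lay below all 3 diabetic arrays, at 10.34 to 10.58. The first probe changed by −2.56 in diabetic and −3.17 in macroangiopathy aorta (adjusted p = 0.0317 and 0.00778), the second by −0.83 and −1.32 (adjusted p = 0.273 and 0.0526). Across the 21 aorta arrays the probes correlated at r = 0.523. Without healthy aorta 1, the array with few smooth muscle markers, the mean of both probes changed by −1.45 (adjusted p = 0.044) and −2.002 (adjusted p = 0.00566). On slide 1, which held 2 healthy aortas and 1 diabetic aorta, the difference was −1.68. Without diabetic aorta 3 the adjusted p for diabetic mice was 0.0577.

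Fabp3 was the member with the highest change in diabetic aorta. It read 16.81, 17.42 and 16.12 against 15.67, 14.66 and 15.25 in healthy aortas, a log2 change of 1.59 (SE 0.63, adjusted p = 0.177) that was not called although the arrays did not overlap. The skeletal muscle markers, which Fabp3 accompanies in muscle fibres, averaged 9.16, 11.88 and 15.29 in the diabetic aortas taken from lowest to highest and 8.12, 9.73 and 12.66 in the healthy ones. The 5 atrial and heart muscle markers averaged 12.18 to 12.69 in the diabetic aortas and 8.76 to 12.02 in the healthy ones. The part of skeletal and heart muscle cells in the Fabp3 value was not tested. Lpl in macroangiopathy aorta had a log2 change of −1.27 (SE 0.56, adjusted p = 0.18), also not called.

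In muscle 0 of 9 members were called with limma between KK/Ay and healthy mice, although 26.4% of all genes were called in diabetic and 24.9% in macroangiopathy muscle. Fabp3 read 17.17, 16.75 and 15.20 in healthy muscles and 17.11 to 17.26 in diabetic muscles. It was the 1 member with an unadjusted p below 0.05 in each comparison, against 38% and 36.7% of all genes. Healthy muscle 3, the array with high epithelial and macrophage markers, set the low value. The log2 change was 0.80 (adjusted p = 0.0739) with it and 0.21 without it, and for macroangiopathy muscle 0.73 and 0.14. Lpl read 13.34 to 13.49 in healthy muscle and 12.98 to 13.25 in diabetic muscle, with changes of −0.30 and −0.31 in diabetic and macroangiopathy mice (SE 0.15 each) that were not called. Groups did not overlap in 1 of 9 members for each, against 30.6% and 30% of all genes.

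The Lpl probes also differed in muscle. Probe A_52_P257812, printed above, had log2 changes of −0.61 in diabetic and −0.67 in macroangiopathy muscle (adjusted p = 0.0159 and 0.00942), where A_51_P259296 had 0.00 and 0.05. With rosiglitazone the first changed by 0.48 (adjusted p = 0.0927) and the second by 0.65 (adjusted p = 0.0291), and with huoxue by 0.48 and 0.66 (adjusted p = 0.0525 and 0.0119). The probes correlated at r = 0.895 over the 21 aorta arrays and at r = 0.415 over the 21 muscle arrays. Between macroangiopathy and diabetic mice, 0 members were called in either tissue with limma, where 0% of all genes were called, and 0 had an unadjusted p below 0.05, which 1.78% of all genes reached in aorta and 3.7% in muscle. The changes ranged from −0.72 to 0.30 in aorta and from −0.34 to 0.05 in muscle.

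Most members ran with the fat cell signal of the sample in aorta, and fewer did in muscle. The mean of Adipoq and Plin1, the genes of adiponectin and of the main droplet coat protein of fat cells, was set against each member over the 21 arrays of a tissue, 19 relations in all, each with a two-sided permutation test. In aorta Cidec followed it at r = 0.937 (rho = 0.955, permutation p = 1e-05 for both, adjusted p = 2.71e-05 and 3.17e-05), and r was 0.899 without macroangiopathy aorta 3 and rosiglitazone aorta 1, the arrays farthest from the median. A value of 1e-05 is the smallest that these permutations can give. They shuffled the arrays of a tissue over all groups and slides. Cd36, Acsl1, Lpl, Dgat2, Fabp4 and Angptl4 followed with r of 0.924, 0.890, 0.855, 0.854, 0.793 and 0.767, rho of 0.688 to 0.909, and adjusted permutation p of at most 0.00019 for r and 0.00158 for rho. Without the same 2 arrays their r ranged from 0.688 to 0.874. An r at least as high was reached by 0.038% of the genes tested for Cidec. For the members from Cd36 to Angptl4 it was reached by 0.0696% to 3.46%. Fabp3 (r = 0.430, rho = 0.427, adjusted permutation p = 0.0666 and 0.0754) and Fabp5 (r = −0.437, rho = −0.127, adjusted permutation p = 0.0617 and 0.612) did not pass, and their r fell to 0.168 and turned to 0.153 without those arrays. Slc27a1 passed in rank alone (r = 0.346, rho = 0.638, adjusted permutation p = 0.147 and 0.00402), and its r was 0.160 without them.

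In muscle Cidec again stood closest, at r = 0.964 (rho = 0.967, permutation p = 1e-05 for both), or 0.948 without SHENQI muscle 3 and healthy muscle 1. Dgat2 followed with r = 0.901 (rho = 0.840), Fabp4 with r = 0.843 (rho = 0.708) and Cd36 with r = 0.647 (rho = 0.574), with adjusted permutation p of at most 0.00368 for r and 0.0119 for rho, and r without those 2 arrays of 0.808, 0.604 and 0.452. Lpl was weaker, with r = 0.499 (adjusted permutation p = 0.0298) and rho = 0.427 (adjusted permutation p = 0.0754), and r was 0.333 without those arrays. The relation of Acsl1 (r = 0.474, rho = 0.308, adjusted permutation p = 0.0499 and 0.220) rested on them, since r was 0.048 without them. Fabp3, Angptl4 and Slc27a1 had r of 0.06, 0.24 and 0.30 and did not pass. A slide held at most 4 arrays, too few for a value within slides. Of the genes tested in muscle, 0.0211% had an r at least as high as Cidec, 0.127% as Dgat2, 0.254% as Fabp4 and 1.11% as Cd36. For Lpl and Acsl1 it was 2.93% and 3.42%. Correlations of deviations from the group means were 0.946 for Cidec in aorta and 0.994 in muscle. For Cd36, Acsl1, Lpl, Dgat2, Fabp4 and Angptl4 in aorta they ranged from 0.764 to 0.958. In muscle they were 0.960 for Dgat2, 0.921 for Fabp4, 0.742 for Cd36, 0.686 for Lpl and 0.486 for Acsl1.

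**Figure D5:**
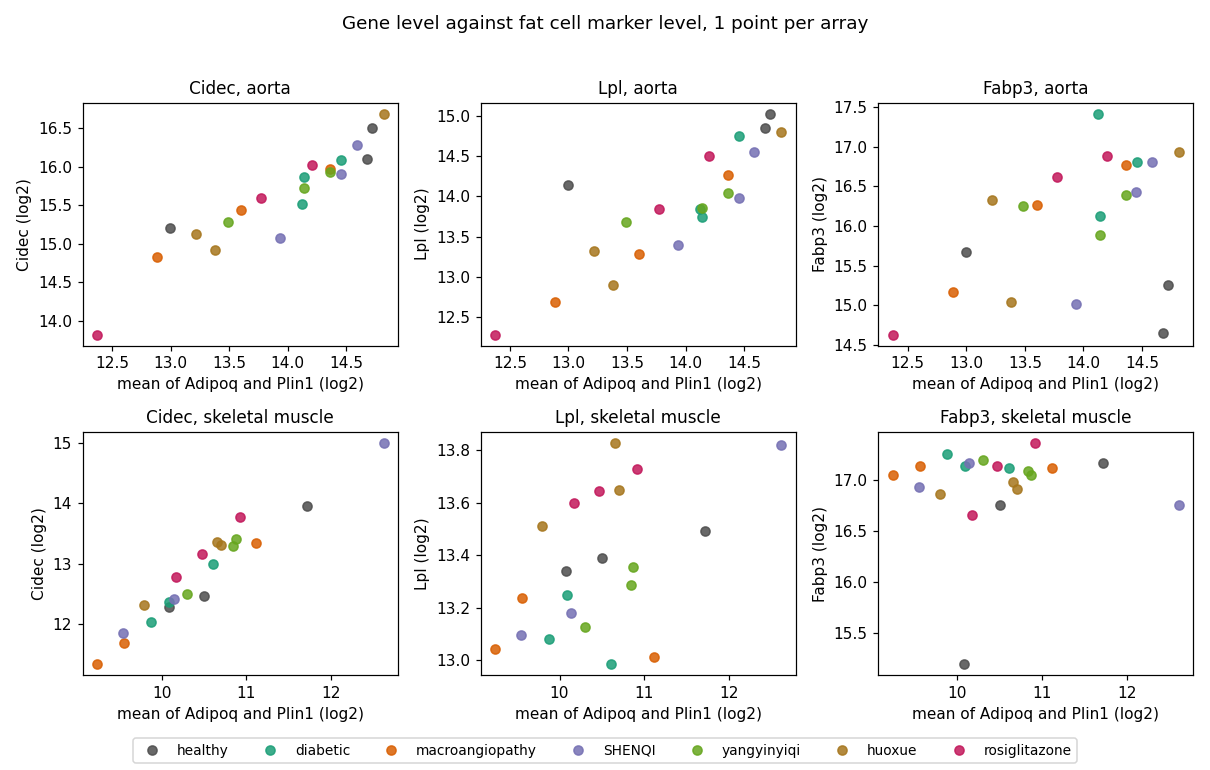
Cidec, Lpl and Fabp3 plotted against the mean of Adipoq and Plin1, both as log2 intensity, with a point for each array coloured by group, aorta in the upper row and skeletal muscle in the lower. Cidec rises with the fat cell markers in aorta (r = 0.937) and in muscle (r = 0.964), Lpl more loosely in muscle (r = 0.499), and the low Fabp3 point in muscle at 15.20 is healthy muscle 3.

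The macroangiopathy muscles had Adipoq and Plin1 means of 9.24, 11.11 and 9.56, and the rosiglitazone muscles 10.92, 10.47 and 10.17. Macroangiopathy mouse 2, the highest of these, was also the macroangiopathy mouse with high Cidec. With that mean as a covariate, a setting chosen after the values were seen, Lpl in rosiglitazone muscle changed by 0.48 (adjusted p = 0.0312) and Cidec by 0.52 (adjusted p = 0.00787), so 2 of 9 members were called, where 4.94% of all genes were called in that fit. For huoxue 3 of 9 were called, where 18.3% of all genes were, with Lpl at 0.51 (adjusted p = 0.0083), Cidec at 0.42 (adjusted p = 0.00767) and Fabp4 at −0.56 (adjusted p = 0.0276). Slc27a1 in aorta changed by −1.73 and −2.10 in diabetic and macroangiopathy mice (adjusted p = 0.00327 and 0.00105), where 6.48% and 12.1% of all genes were called. In aorta the same covariate left 0 of 10 members called for rosiglitazone, with 0% of all genes. Without the covariate, Cidec in muscle had an adjusted p of 0.356 for rosiglitazone and 0.397 for huoxue in limma. The markers were read on the same treated arrays, and Cidec followed them in muscle at r = 0.964. A treatment change in the markers themselves would be taken out by this fit. It also cannot separate slide from treatment, since neither group shared a muscle slide with macroangiopathy.

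The other genes of the pathway were read in 6 lists. In rosiglitazone against macroangiopathy 0 genes of any list were called in either tissue with limma. In aorta the medians of the droplet coat and assembly, triglyceride synthesis, other fatty acid carrier and activation, lipoprotein lipase partner and lipoprotein uptake, and triglyceride breakdown genes were −0.07, 0.09, 0.06, −0.12 and −0.13, and that of 15 other PPAR response genes was 0.29, against −0.03 over all genes. Ehhadh, which encodes a peroxisomal enzyme of fatty acid oxidation, was the 1 PPAR response gene with an unadjusted p below 0.05, at a log2 change of 1.02 (unadjusted p = 0.0403), where 2.89% of all genes reached that threshold. In muscle an unadjusted p below 0.05 was reached by 2 droplet genes and 1 lipase partner that were higher and by 1 gene that was lower in each list except those of the droplet coat and of triglyceride breakdown, where 21.6% of all genes reached it. The medians there were −0.17, 0.07, −0.02, 0.22 and 0.14 in the same order and 0.05 for 14 other PPAR response genes, against 0.04 over all genes. The droplet coat gene Plin4 changed by 0.64 (adjusted p = 0.145) and the lipoprotein receptor gene Vldlr by −0.68 (adjusted p = 0.0597). Pparg itself read 10.45, 9.82 and 9.62 in rosiglitazone muscles and 9.22, 9.94 and 9.48 in macroangiopathy muscles, which overlapped.

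Between diabetic and healthy muscle, where 26.4% of all genes were called, 4 of the 6 lists held called genes. Of 10 droplet coat and assembly genes 3 rose and 2 fell, with a median of 0.14 against 0.03 over all genes. The lipase inhibitor G0s2 rose by 1.92 (adjusted p = 0.0111), Cidea by 1.41 (adjusted p = 0.0128) and Fitm2 by 0.89 (adjusted p = 1.35e-05), and Plin4 fell by 1.06 (adjusted p = 0.00488). Of 14 triglyceride synthesis genes 3 rose and 2 fell, among them Gpam, which starts glycerolipid synthesis, at 0.69 (adjusted p = 0.00084), Mogat2 at 0.52 (adjusted p = 0.0303) and the phosphatidate phosphatase Lpin1, which fell by 1.44 (adjusted p = 4.64e-05). Lpin3, of the same family, fell by 0.70 (adjusted p = 0.0227). Of 14 other PPAR response genes 3 rose and 1 fell, with the oxidation enzymes Acadm at 1.09 (adjusted p = 0.000736) and Acadl at 0.67 (adjusted p = 0.000929) among those that rose. In triglyceride breakdown 1 of 7 fell, the lysosomal lipase gene Lipa by 0.71 (adjusted p = 0.0377), and in the other carriers and the lipase partners 0 of 8 and 0 of 5 were called. Of 4 brown fat markers tested in these muscles, among them Cidea, 3 were called higher, with a median of 1.16, and the 5 markers averaged 8.69 to 9.56 in healthy and 9.50 to 10.57 in diabetic muscles. Of 6 macrophage markers 4 were called lower, with a median of −0.78, and they averaged 8.61 to 9.83 and 8.32 to 8.50. Their part in the list genes was not tested.

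In diabetic aorta, where 3.43% of all genes were called and 1.9% called lower, 1 gene of each of 3 lists fell and none rose. They were the acyl-CoA synthetase gene Acsl5, which fell by 2.60 (adjusted p = 0.00401), the lipase activator gene Abhd5, which fell by 1.25 (adjusted p = 0.0409), and Ehhadh, which fell by 2.87 (adjusted p = 0.0027). In macroangiopathy aorta the same genes fell by 2.43, 1.42 and 3.29 (adjusted p = 0.00583, 0.017 and 0.000814). There 6.36% of all genes were called and 3.1% called lower. Beyond the genes shared with diabetic aorta, 1 of 14 triglyceride synthesis genes was called lower, Lpin1, which fell by 1.97 (adjusted p = 0.0358). A further carrier, the transporter gene Slc27a2, fell by 1.49 (adjusted p = 0.0435) and is named here after its values were seen. In diabetic aorta 0 of 14 triglyceride synthesis genes were called, and 0 of 11 droplet coat genes were called in either comparison. The smooth muscle and brown fat marker levels given with Slc27a1 belong to these same aortas, and their part in the list genes was not tested. The member Acsl1, which encodes an enzyme related to that of Acsl5, was not called in any comparison, and the difference between these genes was not tested.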

How the data were processed

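Aortas and skeletal muscles of 3 mice per group, in 7 groups, had each been put by the authors on a one-colour Agilent array, 42 in all on 11 slides. The deposited scanner files (Agilent Feature Extraction 10.7, per the labels) hold spot and local background intensity for 45018 spots, of which 1639 are controls. A table of log2 values made by the authors served as an alternative only. All sample columns were used.

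Median spot intensities were corrected with normexp at an offset of 0, put on the log2 scale and quantile normalized over all arrays. Control spots and non-uniform spots were left out, and probes were averaged by gene symbol, which 34891 probes carry. A gene was tested in a tissue if one of its probes cleared the background on the 3 arrays of some group. Group means were fitted with lmFit and eBayes of limma 3.58.1 in R 4.3.3 on the 21 arrays of a tissue, and interactions on all 42 arrays over 13882 genes. The p-values were adjusted by the Benjamini-Hochberg method over all genes tested, and the script was tested on simulated data. Figures were drawn with matplotlib 3.10.9.

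Each sample is a separate mouse within its tissue, and the number of arrays limits the precision. Members, gene lists and tests were chosen with earlier results of these data known, and the epithelial markers after the Fabp5 values were seen. The text names every member. Of each pathway list it names at most 4 genes past the adjusted threshold in rosiglitazone against macroangiopathy or diabetic against healthy, by size of change, or else the 2 with the smallest p, and for each member the 2 genes with the highest correlation. Of the genes this rule names, 1 is not reported here.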

Additional observations from a re-analysis of the deposited data

Results flagged for a closer look

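The difference between tissues in Slc27a1 was taken up because the change from healthy to macroangiopathy mice differed between aorta and muscle by the interaction term of limma. The change in aorta minus that in muscle was −2.08 on the log2 scale (SE 0.40, adjusted p = 0.00293), with −2.25 in aorta and −0.17 in muscle. All 3 macroangiopathy aortas lay below all 3 healthy aortas, and the muscles of these groups overlapped. The probes of the gene differed on healthy aorta 1, as given with the result.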

How the results depend on the processing

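Of the counts of members called, 216 of 235 recomputed under another setting and 93 of 108 recomputed without 1 array stayed within 1.5 times the value reported. Most reported counts were 0, several of them where 0% of all genes were called, so little movement was possible there. These totals are therefore no measure of stability. No change of a member with an unadjusted p below 0.05 in limma reversed in sign. For rosiglitazone against macroangiopathy in muscle (1 member called) the count was 0 without the filter on dim probes, 0 in a fit of all 42 arrays, 0 with a term for slides 1, 3 and 11, 0 with slide as a random block, 2 with the Adipoq and Plin1 covariate, and 0 to 0 without any 1 array. For huoxue against macroangiopathy in muscle (1) it was 2 with the brightest probe, 0 in the fit of all 42 arrays, 0 with the slide term, 2 in a fit of the 6 arrays compared, 0 with slide as a random block, 3 with the covariate, and 0 to 1 without 1 array. For diabetic against healthy in aorta (1) it was 0 with the brightest probe, 2 in the fit of all 42 arrays, 2 with the slide term, 0 in the fit of 6 arrays, and 0 to 1 without 1 array. For macroangiopathy against healthy in aorta (1) it was 2 in the fit of all 42 arrays and 0 in the fit of 6. For diabetic against healthy in muscle (0) it was 1 with the processed signal and 0 to 1 without 1 array, and for macroangiopathy against healthy in muscle (0) it was 0 to 1 without 1 array. The cause was not tested. Lpl was called in 9 of 20 settings with rosiglitazone and 14 of 20 with huoxue, and Slc27a1 in aorta in 17 of 20 for diabetic and 19 of 20 for macroangiopathy mice.

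Arrays of the same replicate number were set against each other between the groups of a tissue. Their deviations from the group means had a median correlation of 0.01 in aorta and −0.03 in muscle. Single pairs ranged from −0.60 to 0.68 in aorta and from −0.59 to 0.62 in muscle. These pairs lie within a tissue and cannot show whether the number ties an aorta to a muscle of the same mouse. The interaction fits took the arrays of both tissues as independent. With the number as a replicate block, the count for rosiglitazone against macroangiopathy in muscle was 0 (Lpl adjusted p = 0.0506), the other counts were unchanged, and 638 genes were called there in place of 782. Over all genes that comparison gave 12 in the fit of all 42 arrays and 21 with the slide term, and with slide as a random block 0.753% of genes were called in place of 5.5%.

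With 3 arrays a group, the intervals of the members were wide, at ±1.14 for the median member in aorta and ±0.67 in muscle. Fabp5 lay near background in muscle and has no result there.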

Other observations

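The genes whose values ran closest to each member over the 21 arrays of a tissue were listed as a description, and since the arrays share tissue composition and slides no test was made. In aorta Lpl ran closest to Acvr1c (r = 0.97) and Sfxn1 (0.95), Cd36 to 2810055F11Rik (0.93) and Plin5 (0.93), Fabp3 to Wipf3 (0.88) and Cntfr (0.87), and Fabp4 to Scp2 (0.92) and Pex13 (0.91). Fabp5 ran closest to Lrrc28 (0.95) and Grhl1 (0.94), Angptl4 to Slc1a5 (0.84) and Enc1 (0.83), and Slc27a1 to Gfer (0.94) and Phf5a (0.93). Acsl1 ran closest to Ccdc90a (0.96) and Ppp2r5a (0.96), Cidec to Aqp7 (0.96) and Eci1 (0.95), and Dgat2 to Slc25a48 (0.96) and Ak3 (0.94).

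In muscle Lpl ran closest to Caprin1 (0.85) and Adipor2 (0.83), Cd36 to Matn2 (0.90) and Tmem98 (0.86), and Fabp3 to Tspan2 (0.92) and C85492 (0.91). Fabp4 ran closest to A530016L24Rik (0.89) and Prkar2b (0.88), and Dgat2 to Cd1d1 (0.94) and Prkar2b (0.92). Cidec ran closest to Slc7a10 (0.97) and to Plin1 (0.96), which is itself one of the fat cell markers. Angptl4, Slc27a1 and Acsl1 ran closest to Arsa (0.79) and Bcl2a1b (0.76), BC017158 (0.87) and BC052040 (0.86), and Tmc5 (0.87) and Fam20c (0.84). None of these genes was listed for the same member in both tissues.

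Members also ran with each other. Over 36 pairs of members without Fabp5 the correlation ranged from −0.05 to 0.92 in aorta, with a median of 0.62, and from −0.29 to 0.92 in muscle, with a median of 0.48.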
